A study of Mus musculus with 36 samples.

Results

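The 6 genes described here encode neural cell adhesion molecules of the immunoglobulin superfamily: Ncam1 and Ncam2 of the NCAM family, and L1cam, Chl1, Nrcam and Nfasc of the L1 family. They were taken by symbol from a table of 55470 gene rows measured in 36 libraries of ribosome-bound RNA from mouse cortex. All 6 were among the 11341 genes that passed the low-count filter. Ncam2 was chosen by its difference between the genotypes in naive mice, and the other 5 genes were added as its relatives. For Ncam2, values that use naive libraries are therefore given as a description with no test.

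The mice were Shank3(ΔC/+), heterozygous for a mutation of Shank3, a scaffold of the postsynaptic density, or littermates with Shank3(+/+), called WT. All groups also carried HA-Rpl22 and Camk2a-Cre(+/-) on the C57BL6JL strain. This is the RiboTag method: Camk2a-Cre switches on an HA-tagged ribosomal protein in pyramidal neurons, the excitatory projection neurons of the cortex, and an anti-HA antibody pulls down their ribosomes with the bound RNA. The labels give HA-Rpl22(f/+) in 1 field and HA-Rpl22(f/f) in another. Sex and age were not given in the sources used here, and the labels do not link libraries to animals. The p-values therefore rest on the spread from library to library, which may be technical.

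Tissue came from naive mice and from mice that had swum 1 h or 4 h earlier, in water at 25 °C, for 5 min by 1 label and 6 min by another. The first cohort (cohort 1) gave 3 WT and 3 Shank3 naive libraries, with 6 WT and 5 Shank3 libraries at 1 h. The second (cohort 2) gave 4 WT and 4 Shank3 naive libraries, with 5 WT and 6 Shank3 libraries at 4 h. Each swim group was compared with the naive mice of its own cohort. In bulk RNA such as this, fewer cells of a type and less RNA per cell cannot be told apart.

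NCAM proteins bind each other across the gap between neighbouring cells and signal through Fyn kinase, focal adhesion kinase and growth factor receptors. Polysialic acid added to NCAM1 loosens that adhesion. L1 family proteins bind on the outside to each other, to contactins and to other adhesion proteins, and on the inside to ankyrins, which tie them to the spectrin skeleton. In cortex they are known from axon growth and branching, and Nfasc and Nrcam also from the axon initial segment and the node of Ranvier, where they help to hold sodium and potassium channels.

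The rows differ in what the annotation places on the opposite DNA strand. The libraries were made with a strand-preserving kit, but the sources used here do not say whether, or for which strand, reads were counted. How far the level or rank of a row reflects its own gene, and not one on the other strand, is therefore not known here. Ncam1 (ENSMUSG00000039542, mm10 chr9:49502136-49798925, minus strand) was the only member with exons opposite the exons of another gene. That gene is Gm11149 (ENSMUSG00000079564, chr9:49518288-49572591, plus strand), annotated as an antisense RNA. The shared bases lie in 4 coding exons of the transcript Ncam1-202, which has 18 exons, and amount to 417 bases, or 4.81% of the exon length of Ncam1. These exons are shown because, by position alone, a fragment from the shared bases can belong to either gene. They are written 5′ to 3′ on the Ncam1 strand, from the GENCODE vM21 transcripts, with the bases shared with Gm11149 exons in capitals.
Ncam1 exon 4: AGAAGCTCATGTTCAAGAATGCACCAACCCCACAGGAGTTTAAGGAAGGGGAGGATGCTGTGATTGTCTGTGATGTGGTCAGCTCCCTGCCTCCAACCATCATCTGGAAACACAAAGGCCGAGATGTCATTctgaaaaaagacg
Ncam1 exon 5: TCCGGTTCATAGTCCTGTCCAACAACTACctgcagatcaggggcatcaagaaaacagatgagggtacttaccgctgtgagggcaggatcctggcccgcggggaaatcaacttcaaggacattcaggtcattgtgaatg
Ncam1 exon 9: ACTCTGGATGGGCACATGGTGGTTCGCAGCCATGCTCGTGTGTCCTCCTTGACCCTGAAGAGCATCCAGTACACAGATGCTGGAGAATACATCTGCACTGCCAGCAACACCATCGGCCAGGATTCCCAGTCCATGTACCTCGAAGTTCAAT
Ncam1 exon 15: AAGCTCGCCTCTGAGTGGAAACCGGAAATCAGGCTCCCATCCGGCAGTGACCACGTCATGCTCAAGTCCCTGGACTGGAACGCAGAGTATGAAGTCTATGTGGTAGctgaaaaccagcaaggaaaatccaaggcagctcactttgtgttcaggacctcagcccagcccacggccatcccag
Exon 4 spans chr9:49567337-49567480, exon 5 spans chr9:49566675-49566812, exon 9 spans chr9:49546158-49546308 and exon 15 spans chr9:49520035-49520215.

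The other 5 members had no exon opposite another gene's exon. Ncam2 (chr16:81200697-81626828, plus strand) has only Gm26023, a short noncoding RNA gene, on the opposite strand of its span, and that row held 0 counts in 36 of 36 libraries. The rows opposite Chl1 (chr6:103510586-103750211, plus strand) and Nfasc (chr1:132564690-132741797, minus strand), Gm7946 and Gm10538, were also at 0 in 36 libraries. L1cam (chrX:73853778-73896105, minus strand) lies over Avpr2, which held 53 counts in all. Nrcam (chr12:44328885-44601964, plus strand) has no gene on the other strand. No count of another annotated gene was thus seen opposite Ncam2, Chl1, Nrcam or Nfasc in these files.

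The 6 rows were thinly covered. Libraries held 0.884 to 3.52 M counts, and the 6 genes together held 6226 counts, or 0.0110% of all counts. Summed over the 36 libraries, Nrcam held 2017 counts, Ncam1 1097, Nfasc 1093, Chl1 783, L1cam 688 and Ncam2 548. On the CPM scale (counts scaled to a common library total, with TMM factors) per kb of exon, Nrcam was highest at 2.06 ± 0.582 (SD, n = 36), followed by Ncam1 at 1.65 ± 0.709 and L1cam at 1.29 ± 0.475. Over all libraries Nfasc was at 0.907 ± 0.501 and Chl1 at 0.897 ± 0.299, with Nfasc the higher in 17 libraries and Chl1 in 19, and their order depended on the group. By group means per kb Chl1 was above Nfasc in the 4 naive groups and at 1 h, as in naive WT of cohort 2 (0.816 against 0.498). Nfasc was above Chl1 at 4 h, at 1.37 against 1.08 in WT and 1.65 against 1.08 in Shank3. Ncam2 was lowest over all libraries at 0.681 ± 0.278, below Chl1 in 27 of 36. By group means it was not lowest in naive Shank3 of cohort 2, where it was at 0.853 against 0.795 for Chl1 and 0.649 for Nfasc. At 1 h it was above Nfasc as well, at 0.733 against 0.647 in WT and 0.831 against 0.785 in Shank3. Among the other neighbours in this order, the mean difference was smaller than its SD over libraries, although the higher gene led in 29, 27 and 29 of 36 libraries.

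A property of the whole table touches the values below. Of all counts, 75.2% lay on rows with an exon opposite another gene, which are 16.1% of rows. For antisense genes and the coding genes they overlap in exons, the percent of their joint counts found on coding rows is called the pair share. It was 10.8 ± 0.183% (SD, n = 3) in naive WT and 14.4 ± 2.09% (n = 6) in WT at 1 h, and 11.3 ± 0.567% (n = 3) and 14 ± 1.81% (n = 5) in Shank3. At 4 h it was 23.2 ± 5.32% (n = 5) against 13.2 ± 1.402% (n = 4) in WT, and 25.5 ± 7.23% (n = 6) against 13.1 ± 1.48% (n = 4) in Shank3. Exact two-sided permutation tests of the swim differences gave p = 0.0357, 0.0714, 0.0159 and 0.019 in that order, where the design allowed 0.0119, 0.0179, 0.0079 and 0.0048. Swim responses of named genes that passed the threshold are therefore given with and without the pair share as a covariate, and its part in the results was not tested apart from the swim. With this covariate, 872 of 11341 genes were called in WT at 4 h and 60 in Shank3. Without it, 6350 and 7040 were called. A call lost at 4 h is thus what most called genes showed. The 8 pyramidal markers were all detected in every group, with a summed level of 1359 to 3881 CPM per library. Interneuron markers summed to 3.70 to 85.2 CPM and endothelial markers to at most 1.73 CPM. Of the microglia markers, Csf1r held 26695 counts, on a row with an exon opposite another gene, and none of the other 5 held more than 21. The Shank3 row itself, which covers the whole gene and so does not check the deletion, ran from 5.44 to 19.7 CPM in 18 WT libraries and from 7.18 to 34.7 in 18 Shank3 libraries.

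Ncam2, a homophilic adhesion protein best known from olfactory axons and also present at cortical synapses, had 1 count in 1 group and lay between 3.46 and 13 CPM in the libraries of the other 7. Naive WT mice of cohort 1 had 1, 0 and 0 counts of Ncam2. A count of 0 in a library allows up to 3 counts, and this limit covers counting error only. Naive Shank3 mice of the same cohort had 5, 8 and 6 counts. In cohort 2, naive WT mice had 3, 4, 7 and 5 counts of Ncam2 and naive Shank3 mice had 7, 24, 9 and 4. After scaling, the 4 Shank3 libraries of cohort 2 lay at 9.27, 12.98, 10.7 and 5.73 CPM, above the WT libraries at 3.46, 5.27, 4.76 and 4.98 CPM.

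The naive genotypes thus did not overlap for Ncam2 in either cohort, and this is the contrast the gene was selected on. The share of all genes whose groups did not overlap was not counted, here or for the groups below. The ratio of pooled counts per scaled library size, Shank3 over WT, was 15.0 in cohort 1 with an exact 95% interval of 2.39 to 623.5 for counting error, resting on 1 WT count. In cohort 2 the ratio was 2.29, with an interval of 1.31 to 4.15. Both intervals come from pooled counts and leave out the spread between libraries. As the gene was selected on these values, the intervals are no test of a difference. The fitted log2 fold change over both cohorts was 2.43, and 3.73 and 1.13 from cohort 1 and cohort 2 alone. Without the naive WT library that held the 1 count, replicate 1 of cohort 1, it was 3.93. In that comparison 1 gene of 11341 passed the threshold, 0.00882% of genes tested, and nothing is read from this for Ncam2.

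After the swim, the naive gap in Ncam2 was no longer visible between the genotypes. At 1 h, WT libraries ran from 6.25 through a median of 8.04 to 12.6 CPM, and Shank3 libraries lay at 9.97, 7.83, 10.6, 7.85 and 10.8. At 4 h, WT libraries lay at 9.35, 7.06, 8.48, 8.36 and 8.01 CPM, and Shank3 libraries ran from 7.74 through a median of 9.55 to 12.4. The genotypes overlapped at both times. These contrasts share no library with the choice of Ncam2 and were tested. The log2 fold change, Shank3 over WT, was 0.25 ± 0.237 (SE) at 1 h and 0.24 ± 0.202 at 4 h, with an adjusted p of 0.9999 in both (edgeR quasi-likelihood test, Benjamini-Hochberg over all genes). Approximate 95% intervals from the SE were -0.22 to 0.71 at 1 h and -0.15 to 0.64 at 4 h. The interaction terms use the naive libraries, so they are given with no test: -3.48 at 1 h and -0.88 at 4 h, where a negative value means a lower swim response in Shank3.

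Seen within each genotype, Ncam2 of WT mice was higher after the swim and that of Shank3 mice was near its naive level. In WT, the 6 libraries at 1 h lay above the 3 naive ones, with a pooled ratio of 16.3 (counting interval 2.84 to 655.2, on 1 naive count). The 5 WT libraries at 4 h lay above the 4 naive ones, with a ratio of 1.77 (1.09 to 3.04). In Shank3, swim and naive libraries overlapped at both times, with ratios of 1.34 (0.804 to 2.34) at 1 h and 0.932 (0.667 to 1.33) at 4 h. These ratios and their counting intervals carry the selected naive values, leave out the spread between libraries and are no test. With the pair share in the model the fitted log2 values of Ncam2 for WT were 3.82 at 1 h and 0.74 at 4 h, near the 3.87 and 0.82 without it. In naive mice, cohort 2 stood above cohort 1 by 1.79 on the log2 scale, again with no test. Markers of olfactory sensory neurons, in which Ncam2 is abundant, were at 8 counts for Omp, 2 for Gng8 and 5 for Cnga2 over all 36 libraries.

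**Figure D1:**
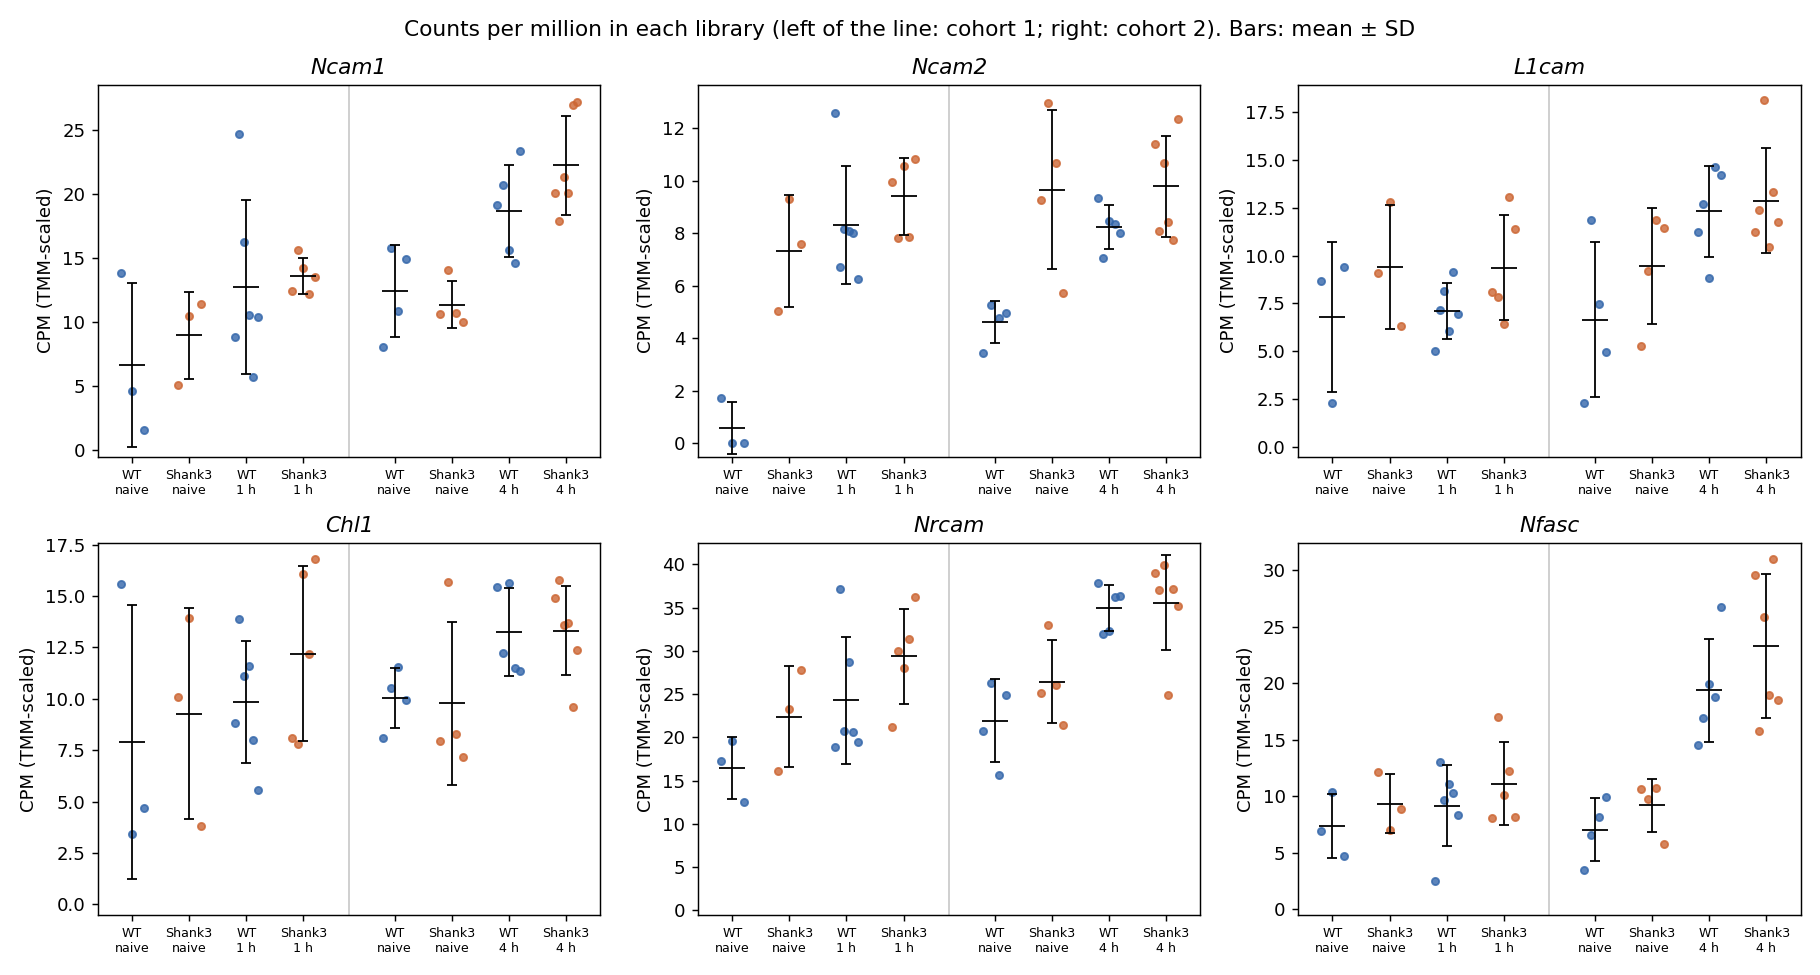
CPM (TMM-scaled counts) of each of the 6 genes on the vertical axis, by group, with 1 point per library, blue for WT and orange for Shank3, and bars for the mean ± SD; cohort 1 is left of the line and cohort 2 right of it. Ncam2 in naive WT of cohort 1 lies between 0 and 1.73 CPM, and Nfasc at 4 h lies above its naive libraries in both genotypes.

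No difference between the genotypes was called for any relative, and the intervals below leave room for one. In naive mice 0 of 5 relatives passed the threshold. After the swim 0 of 6 members did at either time, against a background of 0% and 0.00882% of all genes. At an unadjusted p under 0.05 the whole table held 539 genes for the naive contrast, 205 for 1 h and 228 for 4 h, and DESeq2 gave 189 at 1 h. In the interactions 0 of 5 relatives passed, as did 0% of all genes, with 468 genes at 1 h and 302 at 4 h under an unadjusted p of 0.05 (345 and 288 with DESeq2). All 5 relatives had naive log2 values above 0, from 0.20 for Ncam1 to 0.54 for L1cam, with a median of 0.34 against 0.03 over all genes. Their adjusted p was 1.0 each. The naive interval of L1cam ran from -0.06 to 1.15 and that of Nrcam, at 0.37, from -0.02 to 0.77. In the same mice Ncam1 gave -0.43 to 0.84, Chl1 -0.40 to 0.82 and Nfasc -0.28 to 0.95. At 4 h the intervals were narrower, and Nrcam at 0.03 reached from -0.30 to 0.36.

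Among the 5 relatives, Nfasc had the highest fitted swim response at 4 h in both genotypes; differences between the genes' fitted responses were not tested. Relatives that rose at 4 h were L1cam, Nrcam and Nfasc in WT (3 of 5) and Ncam1 and Nfasc in Shank3 (2 of 5). Over all genes, 29% rose in WT at 4 h and 32.7% in Shank3. Among the 6163 genes with no exon opposite another gene, the class of L1cam, Chl1, Nrcam and Nfasc, the shares were 38.4% and 44.5%. The count of relatives that rose thus lies near the background. Their median was 0.70 in WT and 0.46 in Shank3, beside 0.23 and 0.22 over all genes and 0.57 and 0.61 over genes with no opposite exon.

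Nfasc encodes neurofascin, which neurons place at the initial segment and the node and which oligodendrocytes place at the paranode. Naive WT libraries of cohort 2 had 3, 5, 12 and 10 counts of Nfasc, or 3.46, 6.58, 8.16 and 9.97 CPM. The WT libraries at 4 h had 31, 36, 61, 54 and 160 counts, or 14.5, 16.9, 19.9, 18.8 and 26.7 CPM. Every WT library at 4 h lay above every naive one. How many of all genes were without overlap was not counted, so non-overlap is not read as particular to Nfasc, Nrcam or Ncam1. Naive Shank3 libraries lay at 10.6, 9.73, 10.7 and 5.73 CPM, and the 6 at 4 h ran from 15.8 through a median of 22.4 to 31.0, again without overlap. Nfasc rose by a log2 fold change of 1.44 ± 0.317 (SE, adjusted p = 0.000308) in WT and 1.33 ± 0.296 (adjusted p = 0.000237) in Shank3. Both calls were lost with the pair share in the model, where Nfasc was at 0.65 (adjusted p = 0.223) and 0.42 (adjusted p = 0.592). In that fit 464 of 11341 genes rose in WT at 4 h and 41 in Shank3, against 3294 and 3711 without the pair share. The loss is therefore not particular to Nfasc.

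Nfasc at 1 h overlapped its naive levels in both genotypes. The 1 h and 4 h libraries come from different cohorts, and the times were not tested against each other. WT libraries ran from 2.52 through 9.97 to 13 CPM against naive values of 6.92, 10.4 and 4.71. Shank3 libraries lay at 8.10, 16.96, 10.1, 12.2 and 8.12 CPM against 12.1, 6.98 and 8.86. The log2 values were 0.35 ± 0.417 in WT (adjusted p = 0.525) and 0.22 ± 0.374 in Shank3 (adjusted p = 0.720).

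The summed level of oligodendrocyte markers was higher at 4 h, as was the level of Nfasc. The 8 listed markers summed to 117.1 to 273.4 CPM per library in WT at 4 h against 85.4 to 91.8 in naive WT. In Shank3 they summed to 125.4 to 326 against 71.6 to 123.3. Most of the counts of these 8 markers over all libraries were Cnp (7181), on a row with an exon opposite another gene. Of the 4 that passed the low-count filter, 3 rose in WT and 2 in Shank3, beside 29% and 32.7% of all genes. With the pair share 0 of 4 rose in either genotype, with medians of 0.52 and -0.01. Mag was at 0 in both naive groups of cohort 2, as was Mal in the Shank3 one together with Cldn11, and at 4 h all 8 had counts. Astrocyte markers summed to 85.6 to 108.2 CPM against 35.8 to 83.7 in WT and to 83.9 to 101.2 against 35.8 to 59.5 in Shank3. Most of the astrocyte marker counts over all libraries were Slc1a2 (3879), also on a row with an exon opposite another gene. The summed pyramidal markers, most of whose counts were Camk2a (90601) and Nrgn (39049), were at 2277 to 3881 CPM against 1431 to 2067 in WT and 2212 to 3720 against 1574 to 1956 in Shank3. Of the 8, 4 rose and 2 fell in each genotype, and with the pair share 0 rose in either and 1 fell in WT. The part of these cell types in the Nfasc values was not tested.

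Nrcam encodes a partner of neurofascin at the node and a receptor on growing axons. It had 18, 20, 23 and 25 counts in naive WT of cohort 2 and 81, 68, 99, 104 and 218 at 4 h. Scaled, these were 20.8, 26.3, 15.6 and 24.9 CPM against 37.9, 32.0, 32.3, 36.2 and 36.4, with no overlap. Nrcam rose by 0.70 ± 0.218 (SE, adjusted p = 0.00684) in WT. This call was lost with the pair share (0.44, adjusted p = 0.290) and without naive WT replicate 6 of cohort 2 (0.54, adjusted p = 0.0534). In Shank3 the naive libraries lay at 25.2, 32.98, 26.1 and 21.5 CPM, and those at 4 h ran from 24.9 through 37.1 to 40.0. There the value for Nrcam was 0.40 ± 0.205 (adjusted p = 0.0873), and the call was made without naive replicate 5 of cohort 2 (adjusted p = 0.0445) or without 4 h replicate 4 (adjusted p = 0.0448).
The test of the difference between the genotypes gave -0.30 ± 0.299 for Nrcam (adjusted p = 1.0). At 1 h, Nrcam counts were 10, 17 and 8 in naive WT and 16, 20 and 22 in naive Shank3 of cohort 1. They were 15 to 83 in WT at 1 h, with a median of 28, and 34, 46, 61, 36 and 67 in Shank3. The log2 values were 0.58 ± 0.273 (adjusted p = 0.0898) and 0.40 ± 0.250 (adjusted p = 0.264).

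L1cam encodes the founding L1 protein, which guides axons and is shed from the cell surface by proteases. Its naive WT counts in cohort 2 were 2, 9, 11 and 5, and those at 4 h were 24, 27, 27, 42 and 85. In CPM these were 2.31, 11.9, 7.48 and 4.98 against 11.2, 12.7, 8.80, 14.6 and 14.2, and the groups overlapped through naive WT replicate 5. L1cam rose by 0.90 ± 0.320 (SE, adjusted p = 0.0164) in WT, and the value was 0.72 (adjusted p = 0.251) with the pair share. The call was also lost without naive WT replicate 4 (0.66, adjusted p = 0.0967) or replicate 7 (0.79, adjusted p = 0.0545) of cohort 2. Shank3 naive libraries had 4, 17, 10 and 8 counts of L1cam, and the 6 at 4 h had 19 to 68 with a median of 36. The value there was 0.46 ± 0.293 (adjusted p = 0.171), and the genotypes' responses differed by -0.45 ± 0.440 (adjusted p = 1.0). At 1 h L1cam lay at 0.15 ± 0.433 in WT, from 5, 2 and 6 naive counts to 4 to 16. In Shank3 it lay at -0.04 ± 0.362, from 9, 11 and 5 counts to 13, 12, 14, 15 and 21, and neither passed the threshold.

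Chl1, the close homolog of L1 with a known role in the placement of cortical neurons and dendrites, passed the threshold in none of the comparisons. Its counts were 9, 3 and 3 in naive WT and 10, 12 and 3 in naive Shank3 of cohort 1. At 1 h they were 7 to 31 in WT, with a median of 11.5, and 13, 12, 35, 14 and 31 in Shank3. Cohort 2 had 7, 8, 17 and 10 counts in naive WT and 6, 29, 7 and 5 in naive Shank3. At 4 h Chl1 counts were 33, 26, 48, 33 and 68 in WT and 20 to 77 in Shank3, with a median of 35.5. On the CPM scale swim and naive libraries overlapped in all 4 responses. The log2 values ran from 0.32 ± 0.301 (adjusted p = 0.345) in Shank3 at 4 h to 0.46 ± 0.428 (adjusted p = 0.401) in WT at 1 h. The interval at 4 h in WT was -0.24 to 0.98, which includes both 0 and the 0.70 fitted for Nrcam.

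Ncam1 encodes NCAM1, the carrier of polysialic acid in the brain. Naive WT libraries of cohort 1 had 8, 4 and 1 counts and those at 1 h had 5 to 55 with a median of 18. This gave 13.8, 4.602 and 1.57 CPM against 5.73 through 10.5 to 24.7, and the groups overlapped. Ncam1 was the relative that passed in WT at 1 h (1 of 5, beside 16.9% of all genes that rose), with 1.10 ± 0.437 (SE, adjusted p = 0.0481). The call was lost with the pair share in the model (1.00, adjusted p = 0.107) and, among the naive and 1 h WT libraries, without naive replicate 2 or 3 or 1 h replicate 2 or 3. In those 4 cases the value ran from 0.67 (adjusted p = 0.294, without naive replicate 3) to 1.02 (adjusted p = 0.0762, without 1 h replicate 3). Without naive replicate 1, the highest of the 3 naive libraries, the value was 2.02. In Shank3 at 1 h, 0 of 5 relatives passed, beside 4.99% of all genes that rose. There Ncam1 had 5, 9 and 9 naive counts and 20, 24, 31, 14 and 25 at 1 h, or 5.06, 10.5 and 11.4 CPM against 12.5, 15.7, 14.2, 12.2 and 13.5. The groups did not overlap, and the value was 0.63 ± 0.385 (adjusted p = 0.254).

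At 4 h, Ncam1 passed in Shank3, and in WT its call depended on the library scaling. Naive Shank3 libraries lay at 10.6, 14.1, 10.7 and 10.0 CPM, and the 6 at 4 h ran from 17.9 through 20.7 to 27.2, without overlap. The value was 0.91 ± 0.294 (SE, adjusted p = 0.00752), and 0.58 (adjusted p = 0.462) with the pair share. Naive WT libraries lay at 8.08, 15.8, 10.9 and 14.9 CPM and those at 4 h at 19.2, 20.7, 15.7, 14.6 and 23.4, with a value of 0.61 ± 0.300 (adjusted p = 0.0788). With RLE size factors it was 0.69 (adjusted p = 0.0494) and with DESeq2 0.70 (adjusted p = 0.0455), both past the threshold, and with the pair share 0.35 (adjusted p = 0.577). The difference between the genotypes for Ncam1 was 0.30 ± 0.424 (adjusted p = 1.0). Cohort 2 stood above cohort 1 in naive mice by 0.68 ± 0.320 (adjusted p = 0.139), and 0 of 5 relatives passed there, beside 5.78% of all genes that were higher.

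**Figure D2:**
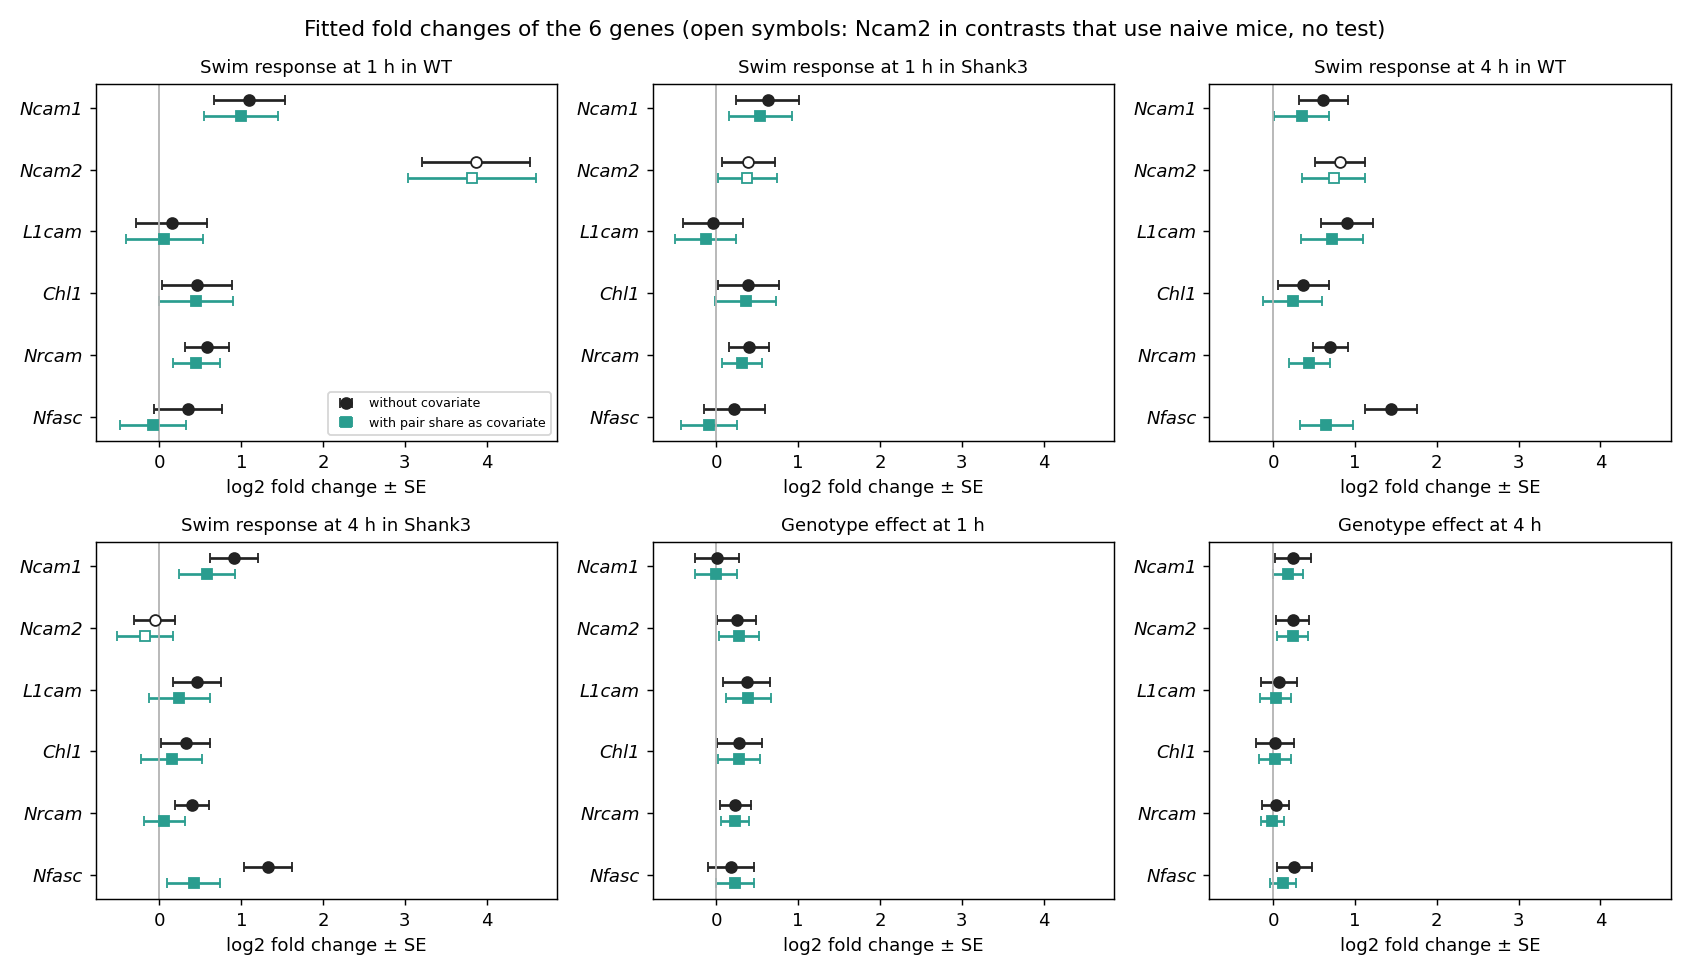
Fitted log2 fold changes with their SE (horizontal axis) for the 6 genes in the 4 swim responses and the genotype effects at 1 h and 4 h, without (black circles) and with (green squares) the pair share as a covariate; open symbols mark Ncam2 where naive mice enter, with no test. Nfasc moves most with the covariate at 4 h, from 1.44 to 0.65 in WT and from 1.33 to 0.42 in Shank3.

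Gm11149, the antisense gene opposite the Ncam1 exons shown above, moved against Ncam1 after the swim on the scaled level. It held 11656 counts in all, against 1097 for Ncam1. Its level was 277.4 ± 56.5 CPM (SD, n = 4) in naive WT of cohort 2 and 114.4 ± 35.9 (n = 5) at 4 h. In Shank3 it was 282.8 ± 42.3 (n = 4) and 116.6 ± 51 (n = 6). Its raw counts overlapped, at 211 to 372 in naive WT and 258 to 392 at 4 h. In Shank3 they were 208 to 456 and 253 to 427. The TMM factors at 4 h all lay above those of naive mice of cohort 2, so the size of the fall depends on the scaling. Gm11149 fell by 1.28 on the log2 scale in both genotypes at 4 h, with an SE of 0.267 in WT (adjusted p = 0.000166) and 0.255 in Shank3 (adjusted p = 6.24e-05). At 1 h in WT it fell by 0.78 ± 0.276 (adjusted p = 0.0271), and in Shank3 the value was -0.53 ± 0.286 (adjusted p = 0.196). Gm11149 with the pair share in the model was at -0.19 in WT at 1 h (adjusted p = 0.223), and at -0.06 in WT (adjusted p = 0.845) and 0.08 in Shank3 (adjusted p = 0.839) at 4 h.

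The Ncam1 row held a small part of the counts of this pair, and that part was larger after the swim. Ncam1 made up 3.31%, 1.04% and 0.386% of the pair in naive WT of cohort 1 and 1.65%, 2.51% and 2.78% in naive Shank3. In naive WT of cohort 2 it made up 2.36%, 4.82%, 4.12% and 6.64%, and in WT at 4 h 13.7%, 11.1%, 12.3%, 11.9% and 26.3%. In Shank3 it went from 3.13%, 5.39%, 4.15% and 3.14% to between 8.96% and 24.6%. The library with the lowest share, naive WT replicate 3 of cohort 1, has a 95% Wilson interval of 0.0682 to 2.15%, and the highest, WT 4 h replicate 5, one of 22.8 to 30.2%. The naive and 4 h libraries did not overlap in either genotype, and no test was made of this share, which was singled out after the overlap was seen.

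**Figure D3:**
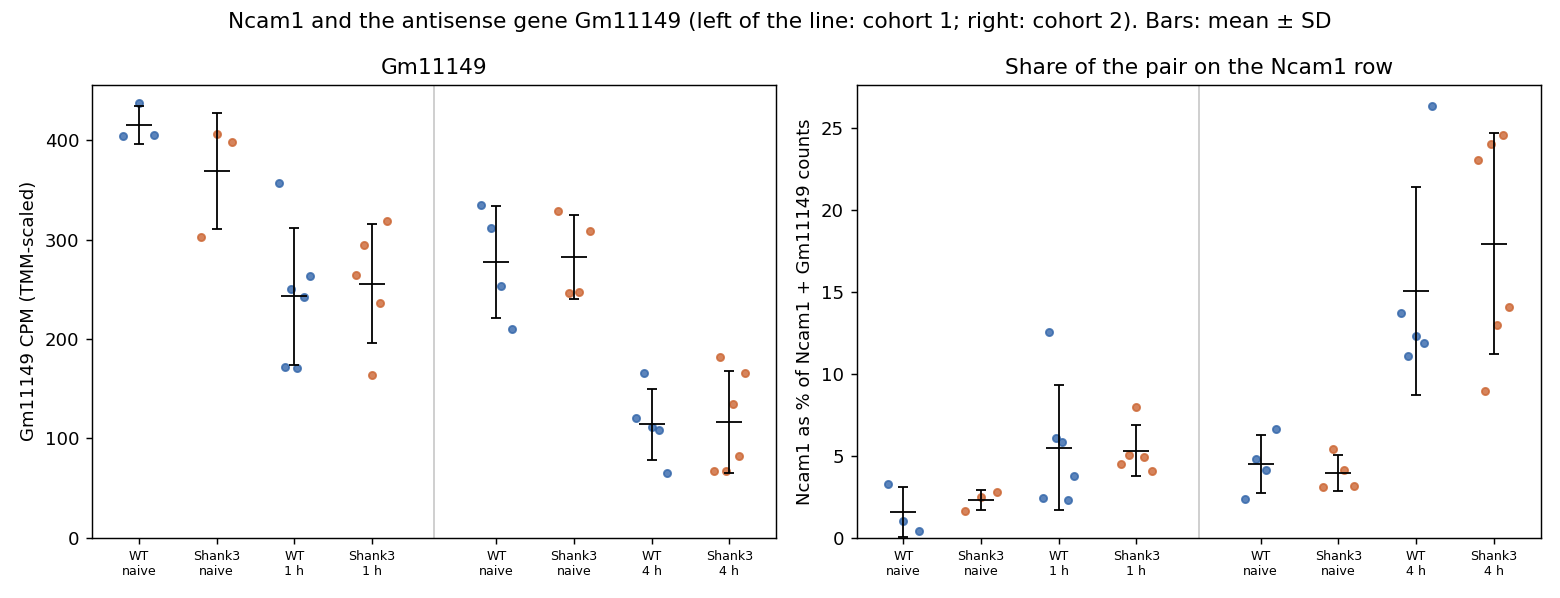
Left, CPM of Gm11149 per library; right, Ncam1 counts as a percent of the Ncam1 and Gm11149 counts per library; groups on the horizontal axis, cohort 1 left of the line, bars for the mean ± SD, blue for WT and orange for Shank3. Gm11149 has means of 114.4 and 116.6 CPM at 4 h, and the Ncam1 part lies between 8.96% and 26.3% there.

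Across the 36 libraries, the level of the 6 genes went with the pair share to different degrees. Pearson's r of log2 (CPM + 1) with the log2 pair share was 0.85 for Nfasc, 0.72 for Nrcam, 0.67 for Ncam1, 0.51 for L1cam, 0.48 for Chl1 and 0.40 for Ncam2. For Gm11149, whose own counts enter the pair share as do those of Ncam1, r was -0.99. Spearman's rho was 0.83 for Nfasc, 0.79 for Ncam1 and 0.40 for Ncam2. The libraries share groups, cohorts and the scaling of counts, so these values describe the libraries and carry no test. Between the genotypes at one time or in one cohort, the pair share gave exact permutation p-values of 0.3 and 0.829 in naive mice of cohort 1 and cohort 2, 0.762 at 1 h and 0.53 at 4 h.

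**Figure D4:**
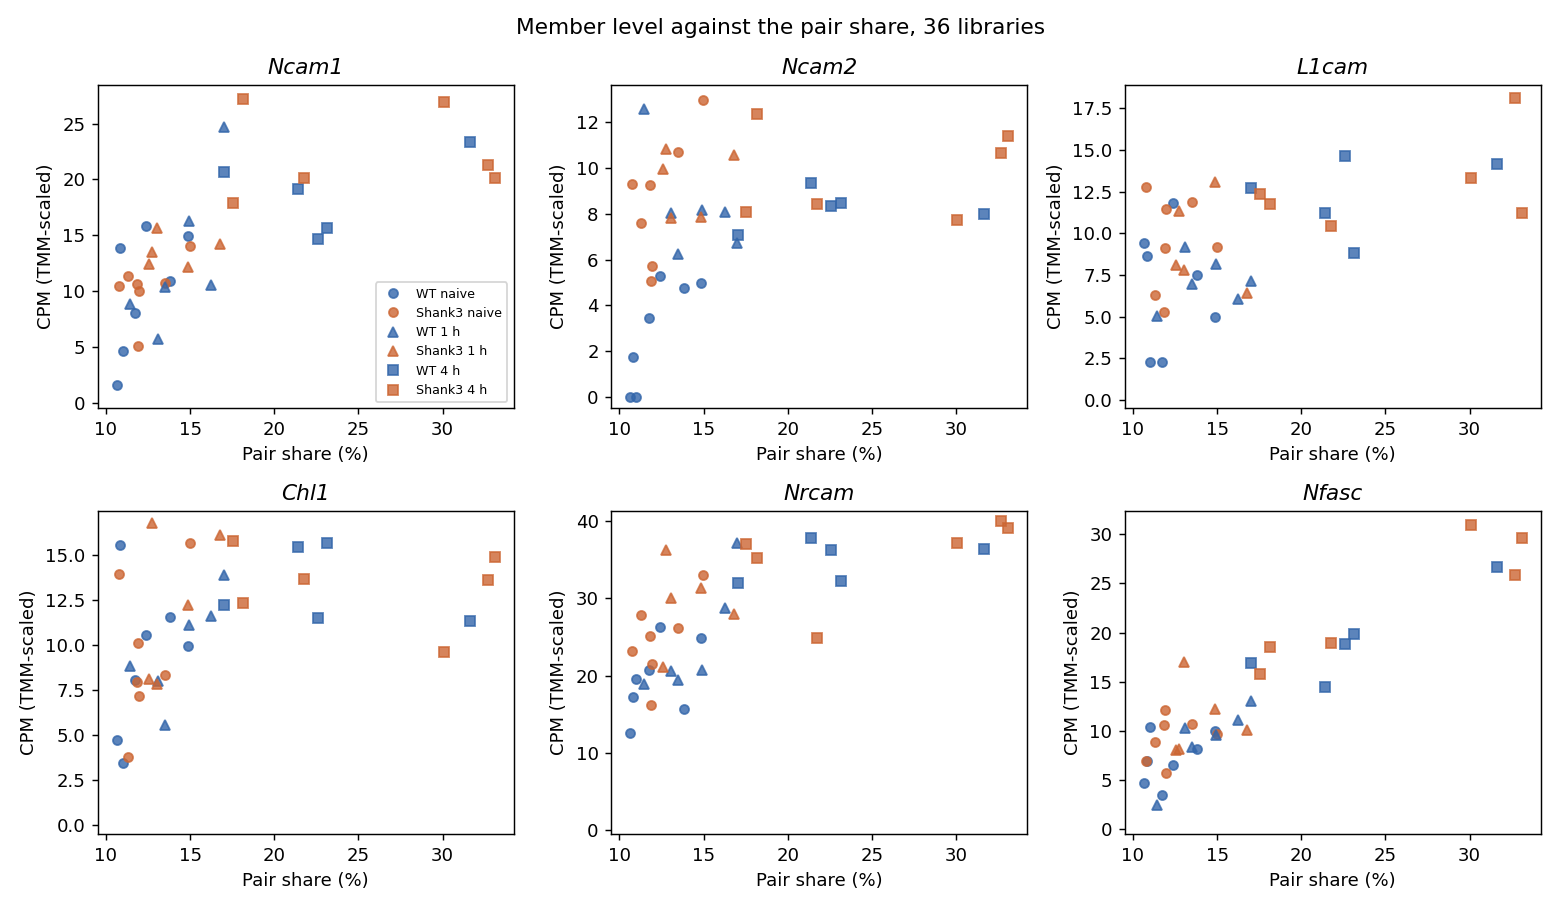
CPM of each gene (vertical axis) against the pair share in percent (horizontal axis), 1 point per library, circles for naive, triangles for 1 h and squares for 4 h, blue for WT and orange for Shank3. Nfasc climbs along the axis (r = 0.85), and Ncam2 is spread at the low end and flat above it (r = 0.40), with r taken on log2 values of both axes.

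A view that needs no library scaling is the share of each gene in the summed counts of the 6. Nrcam held the largest mean share in every group, from 30.3% in Shank3 at 4 h to 37.9% in naive WT of cohort 1. Ncam2 held 0.901% of the sum in naive WT of cohort 1 and 7.42% in that of cohort 2, against 10.8% and 12.5% in naive Shank3. For Nfasc the share went from 11.1% to 18.0% in WT at 4 h and from 12.2% to 19.7% in Shank3. Exact two-sided permutation tests over libraries gave p = 0.0317 and 0.0143 for Nfasc, and 0.32 each after Benjamini-Hochberg adjustment over 42 such tests. None of the 42 passed after adjustment. In Shank3 at 4 h, Ncam1 went from 15.0% to 19.1% (p = 0.0381) and Nrcam from 34.9% to 30.3% (p = 0.0238), both with an adjusted p of 0.32 in the exact permutation tests. In naive mice of cohort 2, Ncam1 held 15.0% in Shank3 and 19.6% in WT (exact permutation p = 0.0286, adjusted p = 0.32).

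**Figure D5:**
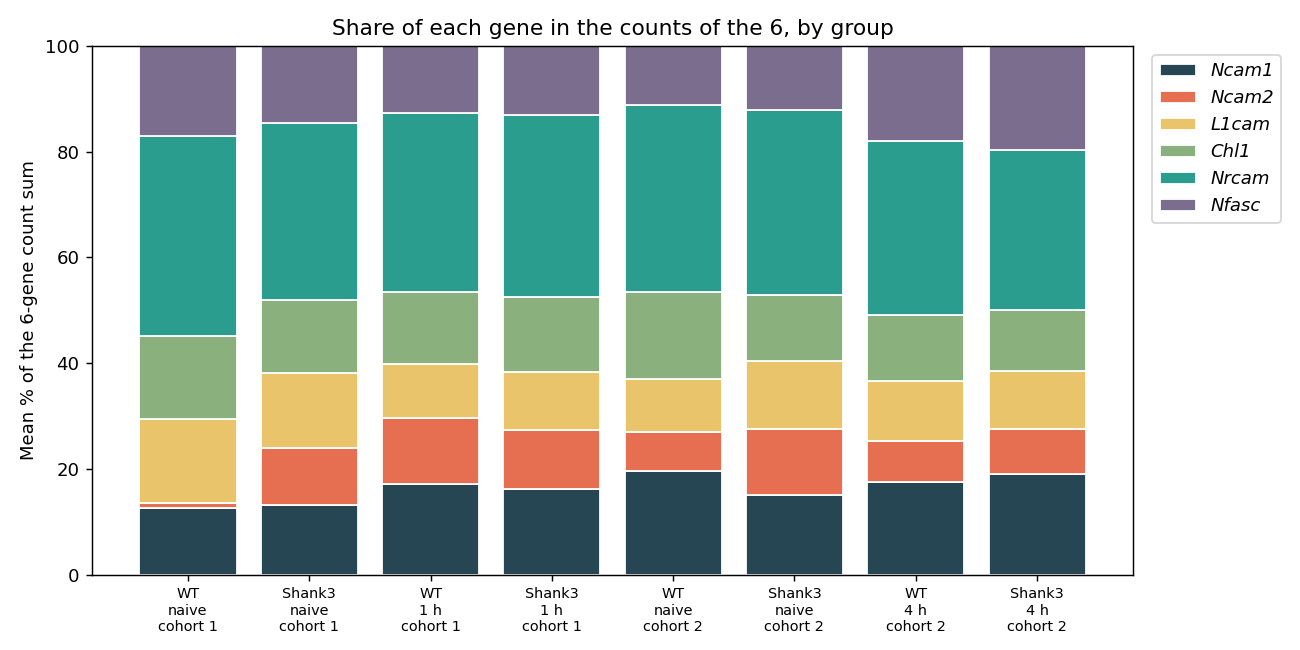
Mean share of each gene in the summed counts of the 6 (vertical axis, percent) by group, as stacked bars. Nrcam is the largest part of every bar, Nfasc is larger at 4 h (18.0% and 19.7%) than in naive mice of cohort 2, and Ncam2 is a thin band in naive WT of cohort 1.

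The members did not follow each other closely. On log2 CPM over the 36 libraries, Ncam1 and Nrcam had the highest Pearson's r of any pair of members, 0.79, followed by Nrcam and Nfasc at 0.71. Ncam2 had r = 0.64 with Ncam1 and 0.33 with Nfasc. After the groups and the pair share were taken out, r was 0.56 between Ncam2 and Chl1, 0.51 between Ncam1 and Nrcam, and -0.25 between Ncam2 and Nfasc. The group medians of Ncam2 were 4.5 to 24 counts outside naive WT of cohort 1, so such values carry much counting error. Among the genes most like Ncam2 on log2 CPM were Ddx18 (r = 0.83), Ankib1, Cfl2 and Mindy3 (r = 0.76), and on the residuals Dglucy (0.69), Rgs17, Rbm24, Nek7 and Cnih3 (0.63). Those most like Nfasc were Rpl23a (0.91), Atp9a and Pnkd, and those most like Nrcam were Eif4g1 (0.85), Atp1b1 and Cpe. For Ncam1 they were Ocrl, Rap2a and Wasl (0.86 to 0.85), for L1cam Edc4, Lgmn and Dbnl (0.73 to 0.71), and for Chl1 Mgea5, Srebf2 and Me1 (0.74 to 0.72).

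The proteins that work with NCAM and L1 were followed in 11 lists with 100 genes, of which 74 passed the low-count filter. None of the 74 passed the threshold in the genotype effects or the interactions. In WT at 1 h, 22 rose and 5 fell, beside 16.9% of all genes that rose, and in Shank3 6 rose and 1 fell, beside 4.99%. Of all 11341 genes, 1962 fell in WT at 1 h and 822 in Shank3. At 4 h, 27 rose and 9 fell in WT, and 40 rose and 9 fell in Shank3. Over all genes 29% and 32.7% rose, and over genes with no opposite exon 38.4% and 44.5%. The WT count of rises lies between these backgrounds and the Shank3 count above both. Of all 11341 genes, 3056 fell in WT and 3329 in Shank3, a larger part than among the partners. No test was made of these shares. The partners' median was 0.56 in WT and 0.69 in Shank3 at 4 h, beside 0.23 and 0.22 over all genes. Over genes with no opposite exon it was 0.57 and 0.61. With the pair share in the model, 5 partners rose and 2 fell in WT at 4 h, and 0 rose and 0 fell in Shank3. Over all 11341 genes that fit had 464 rises and 408 falls in WT, and 41 and 19 in Shank3. At 1 h 20 partners rose and 4 fell with the pair share in WT, and 6 rose and 0 fell in Shank3. Over all genes the rises and falls were 1413 and 1048 in WT at 1 h, and 613 and 747 in Shank3. In naive mice, 9 partners were higher in cohort 2 than in cohort 1 and 2 were lower, beside 5.78% of all genes that were higher. Of the genes named below, these held Adam17 (2.56), Nptn (0.98), Fyn (0.96), Cadm1 (0.94), Ptpra (0.93), Hspa8 (0.55), Sptbn1 (0.51) and Mdga2 (-0.68). Each had the direction of its 1 h change. The part of the naive level of cohort 1 in the 1 h changes was not tested. The counts of the single lists below are to be read against the same background shares. Because no partner stayed past the threshold in Shank3 at 4 h with the pair share, each Shank3 change named at 4 h was lost with it.

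Ankyrins and spectrins, the inner anchor of the L1 family, rose in 6 of 8 cases in WT and 7 of 8 in Shank3 at 4 h. Over all genes 29% and 32.7% rose, and over genes with no opposite exon 38.4% and 44.5%. The medians of the list were 0.96 and 0.81. With the pair share 2 of 8 and 0 of 8 rose, beside 464 and 41 of all 11341 genes. Sptan1, the alpha spectrin of neurons, rose by 1.12 ± 0.205 (SE) in WT and 0.93 ± 0.198 in Shank3. Sptbn4, the beta spectrin of the initial segment and node, rose by 1.82 in Shank3 and was at 0.37 with the pair share. At 1 h in WT, 5 of 8 rose, and 4 of 8 with the pair share. Among them were Sptbn1 (1.07, and 0.95 with the pair share), Ank3, the ankyrin-G gene of the initial segment (0.94 and 0.71), and Ank2 (0.89 and 0.78). Ank2 also rose in Shank3 at 1 h (0.63), where the call was lost with the pair share (0.54, adjusted p = 0.0506). Sptan1 (0.67, adjusted p = 0.0172) and Ank2 (0.74, adjusted p = 0.0108) stayed past the threshold with the pair share in WT at 4 h, and in Shank3 Sptan1 did not (0.40, adjusted p = 0.337).

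Of the other partners at the initial segment and node, 3 of 5 rose and 1 fell at 4 h in each genotype, and with the pair share 1 rose in WT and 0 in Shank3. The potassium channel gene Kcnq3, whose product ankyrin-G holds there, rose by 1.68 in WT and by 1.72 in Shank3. Kcnq3 stayed past the threshold with the pair share in WT (adjusted p = 0.0345) and was at 0.92 in Shank3 (adjusted p = 0.153). Trim46, which organises microtubules at the initial segment, fell by 0.70 in WT and by 0.65 in Shank3, and both calls were lost with the pair share (-0.46 and -0.34). Cntnap1 encodes Caspr, which meets glial neurofascin at the paranode. It fell by 0.95 ± 0.238 (SE) in WT at 1 h, by 0.81 in WT at 4 h and by 0.70 in Shank3 at 4 h. The fall of Cntnap1 at 1 h stayed past the threshold with the pair share (-0.75, adjusted p = 0.0104) and those at 4 h did not (-0.38 and -0.15). In the contactin and Caspr list of 6, Cntn2 (1.76, and 0.78 with the pair share) and Cntnap2 (0.95 and 0.15) rose in Shank3 at 4 h. Cntnap5a fell by 0.72 in WT at 4 h, a value the pair share did not move, although the call was lost (adjusted p = 0.250).

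Among 13 signalling partners tested, 9 rose and 2 fell in WT and 9 rose and 3 fell in Shank3 at 4 h. In the fit with the pair share 0 of the 13 rose and 1 fell in WT, and 0 rose and 0 fell in Shank3. Prnp, the prion protein that binds NCAM, rose by 1.15 in both, and with the pair share it was at 0.15 and -0.06. Mapk3, a kinase downstream of both families, rose by 2.06 in Shank3 and was at 0.10 with the pair share. Gap43, the growth cone protein, fell by 1.13 ± 0.185 (SE) in WT at 4 h, and by 0.80 with the pair share (adjusted p = 0.00151). At 1 h in WT, Fyn rose by 1.41, Ptk2, the focal adhesion kinase gene, by 1.09, and Prkcb by 0.87. These 3 stayed past the threshold with the pair share, at 1.07, 0.91 and 0.76. In Shank3 at 1 h, Ptpra, a phosphatase that activates Fyn, rose by 1.4, and by 1.24 with the pair share (adjusted p = 0.0258). Of the polysialyltransferases only St8sia3 passed the filter. It rose by 0.92 in Shank3 at 4 h and was at 0.12 with the pair share. The NCAM-modifying St8sia2 and St8sia4 were not tested.

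Proteins that bind the inner part of L1 rose in 4 of 9 cases in WT and 5 of 9 in Shank3 at 4 h, and in 1 and 0 with the pair share. Ap2m1, the endocytic adaptor, rose by 1.14 in both genotypes and was at 0.51 in WT (adjusted p = 0.0325) and 0.40 in Shank3 with the pair share. Dnajc5, a synaptic vesicle chaperone, rose by 1.16 and 1.10, and was at 0.30 and 0.09 with it. The scaffold gene Ranbp9 rose by 0.88 in Shank3 and was at 0.56 with it. At 1 h in WT the scaffold gene Dlg1 rose by 0.89 and the chaperone gene Hspa8 by 1.05, and both stayed past the threshold with the pair share (0.78 and 0.96). At 4 h in WT Hspa8 rose by 0.76, and this call was lost (0.59, adjusted p = 0.170).

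Among 3 sheddases, which cut L1 and NCAM from the surface, 1 rose at 1 h in each genotype and 0 at 4 h. In the fit with the pair share 2 rose at 1 h in each genotype, and 1 rose in WT at 4 h. Adam17 rose at 1 h, by 3.19 ± 0.564 (SE) in WT and 3.41 ± 0.537 in Shank3, and it also stood 2.56 higher in naive mice of cohort 2 than of cohort 1. Adam17 was at 3.63 and 3.69 at 1 h with the pair share. Of the semaphorin co-receptors, Plxna2 fell by 0.68 in WT and by 0.65 in Shank3 at 1 h, and by 0.82 and 0.73 at 4 h. The fall of Plxna2 in WT at 1 h stayed past the threshold with the pair share (-0.57, adjusted p = 0.0394), and the other 3 did not (-0.53, -0.51 and -0.36).

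Of 5 IgLON genes, 1 rose in WT at 4 h, Lsamp at 1.39 (0.96 with the pair share, adjusted p = 0.0849). In Shank3 3 rose, among them Iglon5 at 3.42 and Negr1 at 0.58, while Opcml fell by 0.40, and with the pair share these were at 1.64, 0.42 and -0.12. Of 6 SynCAM and nectin genes, Nectin4 fell by 2.04 in WT at 4 h, and by 2.21 with the pair share (adjusted p = 0.0409). Cadm4 (1.19, and 0.34 with the pair share) and Nectin1 (0.95 and 0.17) rose in Shank3. Cadm1, a synaptic adhesion gene, rose at 1 h by 0.84 in WT and 1.18 in Shank3, and with the pair share it was at 0.75 (adjusted p = 0.110) and 1.11 (adjusted p = 0.0191).
Of 13 further immunoglobulin genes, 3 rose and 2 fell in WT at 4 h and 6 rose and 2 fell in Shank3, and 0 in either direction with the pair share. Nptn, the neuroplastin gene, rose by 1.67 in WT at 1 h, and by 1.35 with the pair share. Dscam rose by 1.5 in WT and 1.91 in Shank3 at 4 h, and was at 0.41 and 0.67 with it. Bsg, which encodes basigin, rose by 1.04 and 1.24 at 4 h, and was at 0.18 and 0.20 with it. Mdga2, a regulator of synaptic adhesion, fell by 1.21 in WT at 1 h, and by 0.79 with the pair share (adjusted p = 0.0107). At 4 h Mdga2 fell by 1.43 in WT and by 1.14 in Shank3, and was at -0.56 and -0.20 with it. Of the 74 partner rows, 23 have an exon opposite another gene. At 4 h 8 of these rose and 4 fell in WT, against 19 and 5 of the other 51.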

How the data were processed

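The authors deposited 1 file per library with whole-number counts per gene, not normalized, for 55470 identifiers. Per the labels' protocols, libraries were made with a strand-preserving TruSeq kit. Per the submitters' processing notes, DESeq2, Salmon 1.4, StringTie 2.1.3, HISAT2 2.2.0, Trimmomatic 0.39 and FastQC were used with mm10; which of them made the counts is not given in the sources used here.

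Members, lists and rules were chosen with earlier results of these data known. Positions came from GENCODE vM21 (55229 rows placed), symbols from a table of gene names (55143 rows). Rows without a symbol (0.0388% of counts) were kept.

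Counts were fitted with edgeR 4.0.16 (R 4.3.3), quasi-likelihood, robust, TMM (factors 0.498 to 1.818), with 8 cells of genotype, treatment and cohort, 28 residual degrees of freedom and 11341 genes. Adjusted p-values are Benjamini-Hochberg over all genes per comparison, threshold 0.05. SEs were derived from the fold change and its F statistic and may be understated at low counts; intervals are 95%. Direction is Shank3 over WT, or swim over naive.

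Named partners were up to 3 per list and comparison with the smallest p past the threshold, of which the text gives most and a few are not reported here; likeness used log2 CPM with a prior count of 2, without provisional names. Alternatives were other scalings, DESeq2 1.42.0, no filter, the pair share, a replicate block and leaving out each library. Of 68 library pairs within groups, none came closer than a chi-square of 1.54 per degree of freedom, so none was treated as a duplicate.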

Additional observations from a re-analysis of the deposited data

Results flagged for a closer look

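In groups of 4 to 10 libraries, 5 member values in 36 groups of values stood apart from the rest of their group by Dixon's test at its 95% level; chance alone gives about 1 in 20. Ncam1 in naive Shank3 replicate 5 of cohort 2 was at 14.06 CPM, against 10.02 to 10.69 in the other libraries. Chl1 in the same library was at 15.68 CPM, against 7.158 to 8.312. Ncam2 in WT at 1 h, replicate 1, was at 12.59 CPM, against 6.248 to 8.147. L1cam in Shank3 at 4 h, replicate 3, was at 18.12 CPM, against 10.46 to 13.31. Nrcam in Shank3 at 4 h, replicate 4, was the low one at 24.94 CPM, against 35.21 to 39.98.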

How the results depend on the processing

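Of 10 comparisons, the count of members past the threshold changed in the swim responses of WT at 1 h and of both genotypes at 4 h. In WT at 1 h it was 1 of 5; it was 0 with RLE size factors, 0 with DESeq2, 0 with the pair share, 0 with the replicate block and 2 with no scaling factor, and 0 to 1 over the 36 fits that leave out a library, with the call lost in 24. At 4 h it was 3 in WT and 2 in Shank3, 0 in both with the pair share, 4 and 3 with RLE size factors and with DESeq2, and 5 in both with no scaling factor, where the median of all genes moved to 0.98 and 1.17 from 0.23 and 0.22. The pair share difference of WT at 1 h ran from 3.009 to 4.118 points when a library was left out, an alternative added after seeing the data, and p rose to at most 0.0714 (exact permutation test). In Shank3 at 1 h it ran from 1.985 to 3.041, and p fell to 0.0286 without 1 h replicate 3. No called value changed sign in 2531 recomputed member values; 73 values near 0 differed in sign. Counts of all genes called ranged from 872 to 7862 (6350 here) in WT at 4 h, from 60 to 8362 (7040) in Shank3 at 4 h, from 2325 to 4670 (3879) in WT at 1 h and from 58 to 1875 (1388) in Shank3 at 1 h. They ranged from 23 to 1943 (1208) between cohorts, 0 to 7 (1) and 1 to 5 (1) for genotype in naive mice and at 4 h, 0 to 1 (0) at 1 h, and 0 to 2 and 0 to 5 (0 in both) for the interactions.

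Replicate numbers recur across groups. In 28 same-numbered pairs the correlation of deviations ran from -0.25 to 0.73, 8 were over 0.1 and 8 libraries correlated best with their own number. The highest, 0.69 and 0.73, were between the genotypes at 4 h for replicates 2 and 5. The deviations were taken without the pair share, so this check cannot decide whether same-numbered libraries belong together. The main fit treated them as unpaired. The replicate block ended the call of Ncam1 in WT at 1 h (1.14, adjusted p = 0.0558) and left the other counts of members called as they were. Depth limits the values of Ncam2, which had at most 59 counts in a library.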
